A study of Zea mays with 2 samples.

Results

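Germin-like protein genes were described in the leaf of the maize (Zea mays) cultivar Sugar 75. The members were every gene whose family description holds the word germin (4 genes, leaving out words such as germination), and in addition glp1 (GRMZM2G064096), whose description names only a cupin domain. This gave 5 genes of the 39634 listed in each library. One library, the control, came from untreated plants, and the other, the treated library, from plants given an extract of seaweed. Both were made from leaves at the V5 stage in a series on drought, and the sources used here do not say whether both sets of plants were droughted. The labels describe each library as a pool of 3 independent samples with 2 technical replicates, and how the latter entered the values is not stated. Values are FPKM, which scales the fragments of a gene to its length and to library size, followed in parentheses by the interval the authors deposited for each. With a single library per group, each difference is one between 2 libraries with no replicate check, and the intervals cover quantification alone.

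Germins are secreted proteins of the cupin superfamily, named after their barrel-shaped fold, and bind manganese. The germin of wheat and barley is an oxalate oxidase, which releases hydrogen peroxide from oxalate in the cell wall. Several germin-like proteins of cereals and other plants have superoxide dismutase activity, which also yields hydrogen peroxide, and the family is known for responses to fungal attack and to abiotic stress.

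In control leaves glp1 held most of the RNA of these genes, and its level was 15.8-fold lower after treatment. GRMZM2G151249 had the second highest level in the control, was higher after treatment by a factor of 2.097, and was the highest member there. The other 3 members were at or near 0 in both libraries. All 5 carry the domain PF00190 (Cupin_1) in the deposited annotation.

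The gene glp1 lies on chromosome 6 at 123777182 to 123778357 in the coordinates of the deposited tables, for which no source used here names a genome build. Its level was 76.9 FPKM (73.3 to 80.5) in control leaves and 4.85 FPKM (3.82 to 5.89) in treated leaves. The control was high and the treated library low, and the intervals were far apart. On the scale of log2(FPKM + 1), which understates differences of low values, the treated minus control difference was -3.73. Setting opposite ends of the intervals against each other gave -4.08 and -3.43 on this scale, and plain folds from 12.5 to 21.1. The widths of the intervals corresponded to about 1830 fragments in the control and 88.0 after treatment, so the treated value is the less precise of the pair.

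Ranked by level over all genes, glp1 stood at place 348 in the control and at place 7472 after treatment. Of the 16272 genes that reached 1 FPKM in either library, called expressed here, 19 had a lower log2 ratio than glp1. Among the 528 genes with at least 50 FPKM in the control, a limit chosen after the values were seen, 6 had a lower log2 ratio. In this abundant group 77 genes (14.6%) were lower by a log2 ratio of 1 or more. The limit was set on the control alone, and glp1 passes it only there. That choice favours genes with lower values after treatment, so neither the rank nor the share in this group is a result for glp1.

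GRMZM2G151249, annotated to germin-like subfamily T, lies on chromosome 1 at 289847066 to 289848058. It was at 3.28 FPKM (2.42 to 4.14) in control leaves and at 6.89 FPKM (5.50 to 8.27) in treated leaves. The treated library was the higher one, and the intervals did not overlap. They rested on about 58.2 and 98.5 fragments. The log2 ratio was 0.88 (0.34 to 1.44 from opposite ends of the intervals), short of the value of 1 at which a gene was called higher. A higher log2 ratio was found for 920 expressed genes (5.65%).

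The remaining members were not detected above 1 fragment. GRMZM2G142342 (subfamily 3 member 4, chromosome 4, 191764431 to 191765134) had 0.071 FPKM (0 to 0.21) in control leaves, the equivalent of 1 fragment, and a listed value of 0 after treatment. GRMZM2G016443 (subfamily 1 member 1, chromosome 1, 16436083 to 16436786) was listed at 0 in both, as was GRMZM2G161097 (related to subfamily 2 member 1, chromosome 7, 10165497 to 10166683). An exact 0 can be a missing estimate in these tables, because all 181 genes of the organelle chromosomes are listed at 0 in both libraries, so no fold was computed for these 3 members.

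**Figure D1:**
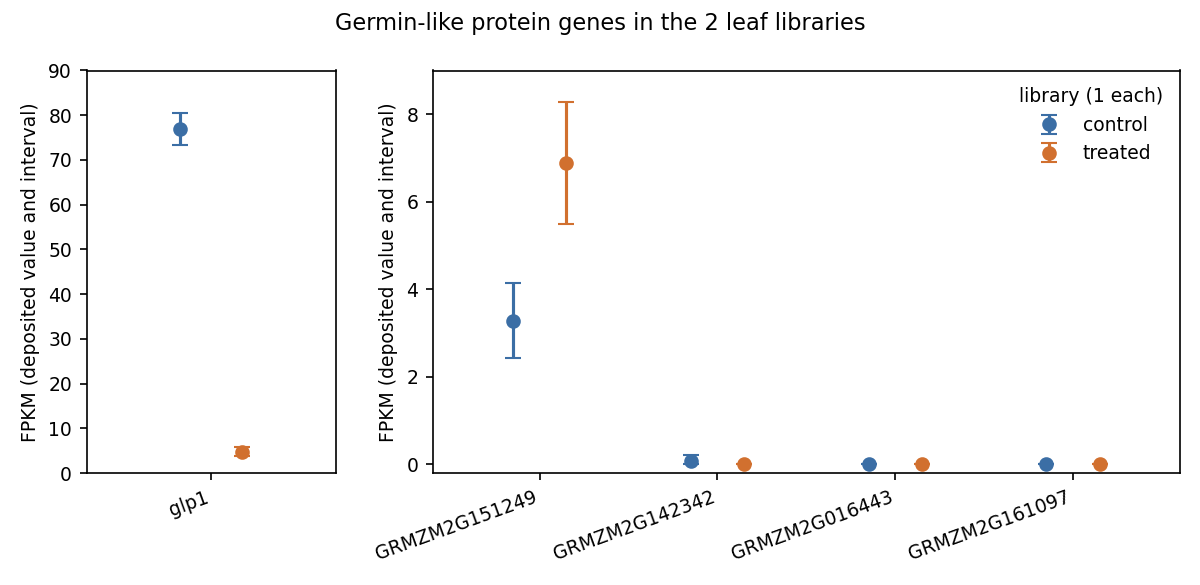
FPKM of the 5 germin-like protein genes in the control and the treated library (1 library each), with glp1 on an axis of its own; points are deposited values and bars the deposited intervals. The value of glp1 is 76.9 FPKM in the control and 4.85 FPKM after treatment, that of GRMZM2G151249 is 3.28 and 6.89 FPKM, and the other 3 genes lie at or near 0.

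Counted as a group, 1 of the 2 expressed members (glp1) was called lower, with a log2 ratio of -1 or less, and no member was called higher, where 2.52% of expressed genes were lower and 3.71% higher. Both expressed members had intervals that did not overlap, glp1 on the lower side with 8.76% of expressed genes and GRMZM2G151249 on the higher side with 28.6%. The median log2 ratio of the pair was -1.43, against 0.22 for all expressed genes (quartiles -0.04 and 0.46). Since the pair differed in opposite directions, this median describes neither. The gene glp1 was added by name, while 39 other genes with its description were not. The count and the median thus rest on that choice and are no result for the family. GRMZM2G151249, the only expressed member found by description, had the higher value after treatment.

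The median plain ratio of treated to control was 1.20, so values were also centred on the median gene. The log2 ratio of glp1 was then -3.95, with a 19.1-fold lower level, and again 1 member was lower and none higher, where 3.39% of expressed genes were lower and 2.04% higher. GRMZM2G151249 had a centred log2 ratio of 0.65 and a fold of 1.74. With 0.1 FPKM added in place of 1, glp1 was called lower and GRMZM2G151249 called higher, where 4.04% of expressed genes were lower and 8.36% higher.

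Summed over the members, the level was 80.3 FPKM in control leaves and 11.7 FPKM after treatment. The share of glp1 in this sum was 95.8% in the control and 41.4% after treatment. The share of GRMZM2G151249 was 4.09% and 58.6%. Without glp1, which was added by name, nearly all of the sum was GRMZM2G151249, at 3.28 FPKM in control leaves and 6.89 FPKM after treatment. FPKM is per gene length, which allows these levels to be set beside each other between genes.

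In the authors' deposited table of lower genes, glp1 had a log2 fold change of -4.30, a p-value of 5e-05 and a q-value of 0.00995, and was marked significant. That p-value is the smallest in the authors' deposited table and is shared by 66 genes. The longer of the authors' deposited lists of lower genes holds 631 genes, or 1.59% of all genes, and glp1 was its only germin-like member. No member stands in the authors' deposited lists of higher genes. The plain log2 ratio of glp1 in the library tables was -3.99, and the cause of the gap to the authors' deposited value was not tested. The authors' p-value sets one library against another and so bears on the libraries rather than on the treatment.

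**Figure D2:**
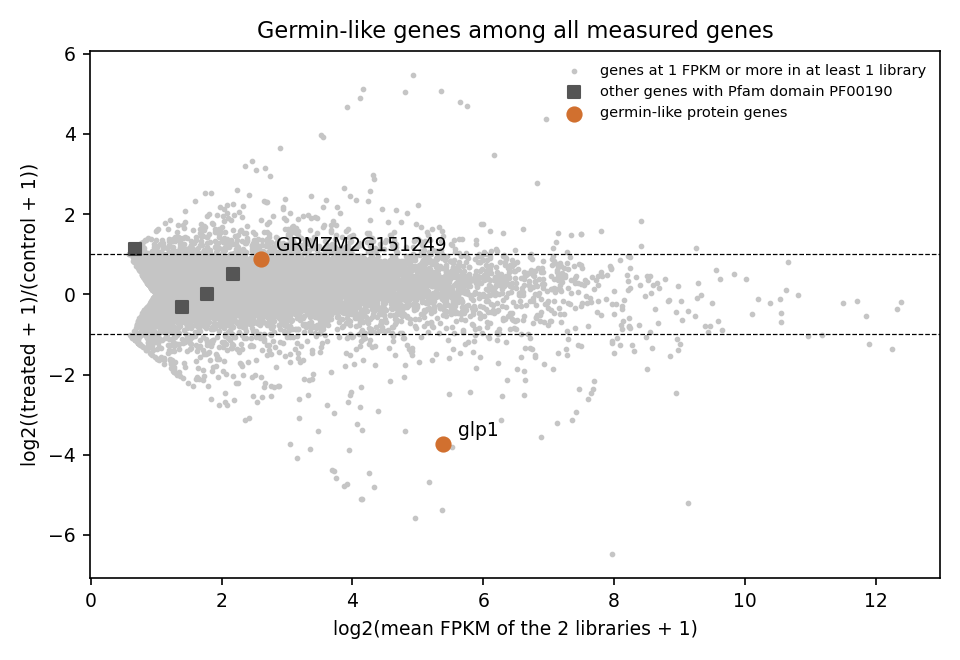
Log2((treated + 1)/(control + 1)) against log2 of the mean FPKM + 1 for the 16272 genes that reached 1 FPKM in either library, with dashed lines at log2 ratios of -1 and 1. The germin-like gene glp1 lies at -3.73, far below the lower dashed line, while GRMZM2G151249 lies at 0.88 under the upper dashed line and 4 other genes with the domain PF00190 lie between -0.32 and 1.14.

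Leaf genes and the FPKM per fragment also differed between the libraries. The 5 leaf markers, pep1, Lhcb4, ssu1, me3 and RCA1, which encode enzymes of C4 photosynthesis and of the Calvin cycle, the activase of Rubisco and a light-harvesting protein, spanned 160.5 to 1747 FPKM in the control and 36.1 to 1262 FPKM after treatment. All 5 had lower values after treatment, with log2 ratios from -2.47 (Lhcb4) to -0.47 (pep1), each closer to 0 than that of glp1. Only Lhcb4 and ssu1 (-2.12) passed the log2 ratio of -1 for a lower call. A further planned marker, ca1, was not included. The planned seed storage words (zein, vicilin or globulin) matched 50 genes, of which 11 reached 1 FPKM. Those 11 are described by zein-binding, immunoglobulin or vicilin peptidohydrolase names and not as storage proteins. The list was therefore narrowed to the 29 genes described as zein seed storage proteins, whose highest value was 0.224 FPKM. The FPKM that a single fragment stood for was read from interval widths. It was larger after treatment than in the control by a factor of 1.31 for glp1 and 1.24 for GRMZM2G151249. This can reflect a more deeply sampled control, but the factors differ between the genes, and depth itself was not measured. The part of the leaf genes and of depth in the difference of glp1 was not tested. In bulk leaf RNA, fewer cells that express a gene and less RNA per cell cannot be told apart.

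The members were also set beside the other genes with their domain. PF00190 is carried by 60 genes, the 5 members and 55 others, and the description of glp1 is shared by 39 other genes. A germin-like gene can carry this description, as glp1 does, so the 55 others can include further germin-like genes. Of the 55 others, 4 were expressed, and 30 of the 60 genes were listed at 0 in both libraries. Reads from near-identical copies could be split between such genes, and how the counting treated them is not stated.

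None of those 4 genes came near the control level of glp1, and none was called lower, where 2.52% of expressed genes were. GRMZM2G343974, described as a cupin, had 2.74 FPKM (2.03 to 3.44) in control leaves against 4.30 FPKM (3.33 to 5.28) after treatment. GRMZM2G115491, with the same description as glp1, was at 2.42 FPKM (1.72 to 3.12) in control leaves against 2.43 FPKM (1.63 to 3.22) after treatment. The cupin gene cl2-1 (GRMZM2G005552) was at 1.93 FPKM (1.38 to 2.48) against 1.35 FPKM (0.83 to 1.88). For each of these 3 genes the intervals of the libraries overlapped. GRMZM2G094328, also with the description of glp1, was listed at 0 in control leaves and reached 1.20 FPKM (0.77 to 1.63) after treatment, and it stands in the authors' deposited lists of higher genes.

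Summed over all 60 genes, the level was 90.9 FPKM in control leaves and 23.6 FPKM after treatment, of which glp1 held 84.6% and 20.6%. Leaving out all 5 members, the sums were 10.7 FPKM and 11.8 FPKM. The difference of the family sum thus lay with glp1, and the sum of the non-members was close to level.

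A run of 20 genes with this domain lies on chromosome 4 between 28350228 and 28746449. None of them was expressed, 14 were listed at 0 in both libraries, and the highest value was 0.50 FPKM. The seed storage genes with a cupin fold were low as well. The globulin gene glb1 (GRMZM2G067919) had 0.017 FPKM in control leaves against 0.063 FPKM after treatment, and the legumin gene leg1 (GRMZM2G174883) had 0.073 FPKM against 0.061 FPKM. GRMZM2G122018, which the RefSeq gene table names GLP2 and whose description holds only the cupin domain, was listed at 0 in both libraries.

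**Figure D3:**
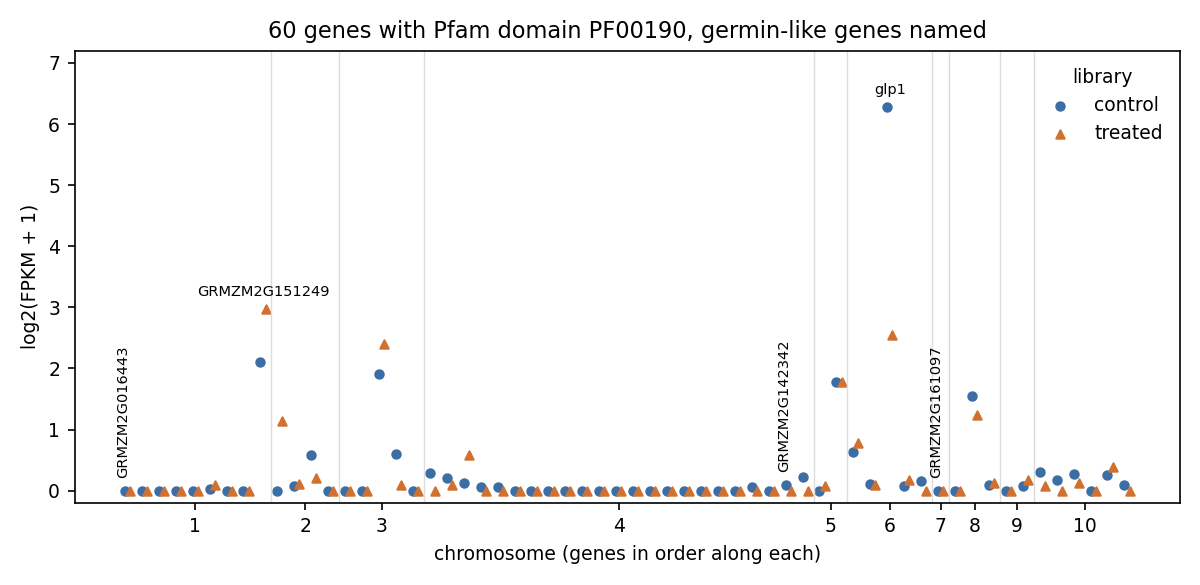
Log2(FPKM + 1) of the 60 genes with Pfam domain PF00190, in order along chromosomes 1 to 10. Circles are the control, triangles the treated library, and the 5 members are named. The control value of glp1 (76.9 FPKM) stands alone at the top, and the run of 20 genes on chromosome 4 lies at the bottom.

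The genes next to glp1 on the chromosome were not called, where 3.71% of expressed genes were higher and 2.52% lower. At those shares few calls arise among so few genes, so the counts of neighbours are no result for either locus. Of the 6 genes on each side in the deposited coordinates, 7 of 12 were expressed, and their log2 ratios ran from -0.33 to 0.73. The nearest expressed neighbour, GRMZM2G064001, described as a haloacid dehalogenase-like hydrolase and 6.72 kb away, had 62.3 FPKM (58.4 to 66.1) in control leaves against 58.3 FPKM (54.4 to 62.2) after treatment. Its intervals overlapped, at a control level near that of glp1. Around GRMZM2G151249, 9 of 12 neighbours were expressed, none was called, and their log2 ratios ran from -0.29 to 0.48.

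**Figure D4:**
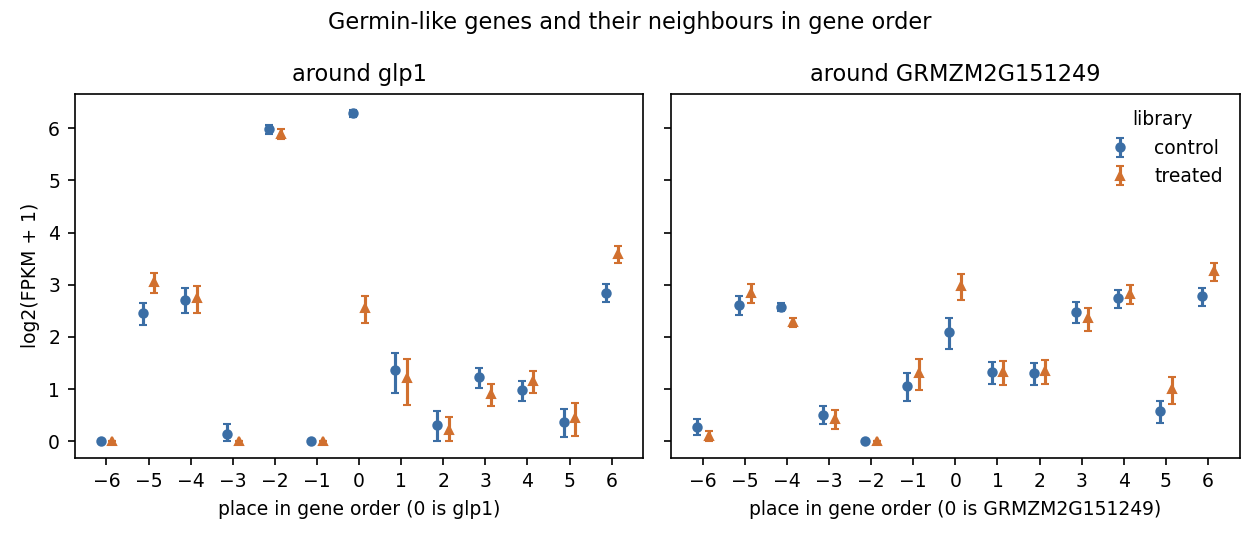
Log2(FPKM + 1) with deposited intervals for the 6 genes on either side of glp1 (left) and of GRMZM2G151249 (right), by place in gene order, in the control (circles) and the treated library (triangles). The libraries lie far apart at place 0 for glp1, while the neighbour at place -2 had 62.3 FPKM in the control and 58.3 FPKM after treatment.

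Other genes whose enzymes make or use superoxide, hydrogen peroxide or oxalate were taken by words in their descriptions. Each count below is over expressed genes, uses a log2 ratio of 1 or more in either direction, and is read against the 3.71% of expressed genes called higher and the 2.52% called lower. Intervals that did not overlap were common, with 28.6% of expressed genes on the higher side and 8.76% on the lower side.

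Respiratory burst NADPH oxidases make superoxide outside the cell. Of 7 such genes, 1 was higher and none lower, with a median log2 ratio of -0.05. The higher one, GRMZM2G089291, named after its value was seen, had 2.28 FPKM (1.87 to 2.69) in control leaves against 5.84 FPKM (5.09 to 6.59) after treatment. Its centred log2 ratio of 0.84 was short of 1. GRMZM2G138152, also named after its value was seen, had the lower value after treatment, with intervals that did not overlap, like 8.76% of expressed genes. It was at 9.62 FPKM (8.83 to 10.4) in control leaves against 6.44 FPKM (5.76 to 7.13), a log2 ratio of -0.51.

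Superoxide dismutases turn superoxide into hydrogen peroxide, as several germin-like proteins do. Of 10 expressed genes with these words in the description none was called, and their median log2 ratio was 0.34 (0.11 centred). One of the 10, GRMZM2G175728, is described as the copper chaperone of the enzyme and not as a dismutase. Without it, 9 genes had a median of 0.40 (0.16 centred), and again none was called. The copper-zinc gene sod4 (GRMZM2G169890) had 11.2 FPKM (9.74 to 12.7) in control leaves against 21.0 FPKM (18.7 to 23.3) after treatment. The related gene sod2 (GRMZM2G025992) had 19.4 FPKM (17.3 to 21.5) against 31.0 FPKM (27.96 to 34.0). Both had the higher value after treatment with intervals that did not overlap, like 28.6% of expressed genes. Leaving out the chaperone, the sum over the 15 genes of this list was 95.9 FPKM in control leaves and 135.3 FPKM after treatment. These sums are not centred, and the median gene was itself higher after treatment by a factor of 1.20.

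Class III peroxidases are secreted enzymes that oxidise wall phenolics with hydrogen peroxide. Of 5 such genes found by name, 1 was lower and none higher, with a median log2 ratio of -0.14. Peroxidase 17 (GRMZM5G843748) had 11.5 FPKM (10.1 to 12.8) in control leaves against 22.4 FPKM (20.2 to 24.6) after treatment, a log2 ratio of 0.91. With genes described only by the enzyme class added, an extension made after the data were seen, 4 of 17 were lower and none higher, with the same median. Among these GRMZM2G126261 had 23.0 FPKM (21.1 to 25.03) in control leaves against 10.7 FPKM (9.22 to 12.2) after treatment, a log2 ratio of -1.04. The other 3 lower genes, named after their values were seen, had lower levels and larger differences. GRMZM2G471357 had 6.15 FPKM (5.12 to 7.18) in control leaves against 0.105 FPKM (0 to 0.35) after treatment, a log2 ratio of -2.69. Its plain fold of 58.5 exceeds that of glp1, but the treated value corresponds to less than 1 fragment. The nearest ends of the intervals give a fold of 14.6, against 12.5 for glp1 on the same measure. GRMZM2G150893, the lower gene found by name, was 8.46-fold lower and GRMZM2G394500 7.48-fold lower, with about 4.25 and 4.69 fragments after treatment. All 4 stand in the longer of the authors' deposited lists of lower genes.

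Amine and polyamine oxidases release hydrogen peroxide from amines. Of 8 such genes 1 was higher and 1 lower, with a median log2 ratio of 0.11. The lower one was the polyamine oxidase gene pao1 (GRMZM2G034152), at 22.2 FPKM (20.6 to 23.8) in control leaves against 1.98 FPKM (1.43 to 2.53) after treatment, an 11.2-fold lower level. The higher one, the amine oxidase gene GRMZM2G359298, was at 2.85 FPKM (2.41 to 3.29) against 10.8 FPKM (9.86 to 11.8), a 3.79-fold higher level. None of the 4 genes with laccase or multicopper oxidase in the description was expressed. Laccase genes described in other words were not sought.

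Oxalate, the substrate of the cereal germins, is also broken down through a coenzyme A ester. Of 5 genes described as oxalate-CoA ligase or oxalyl-CoA decarboxylase 3 were expressed and none reached a log2 ratio of 1 in either direction, with ratios from -0.90 to 0.17 and a median of -0.05. The lowest was the ligase gene GRMZM2G333861, named after its value was seen, at 1.48 FPKM (1.05 to 1.92) in control leaves against 0.33 FPKM (0.096 to 0.56) after treatment. Its intervals did not overlap, its plain level was 4.55-fold lower, and it stands in the longer of the authors' deposited lists of lower genes. Genes with the word cupin in the description had 2 of 8 expressed members higher and none lower, with a median of 0.27 (0.06 centred). Those were GRMZM2G094328, given above, and GRMZM2G118992, listed at 0 in control leaves and at 1.04 FPKM (0 to 2.08) after treatment. Both are listed at 0 in control leaves, which can be a missing estimate, and neither was called after centring. One of the 8, GRMZM2G481755, at 16.03 FPKM (14.5 to 17.5) in control leaves against 19.2 FPKM (17.3 to 21.0) after treatment, was matched only through the letters of the unrelated name Porcupine.

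**Figure D5:**
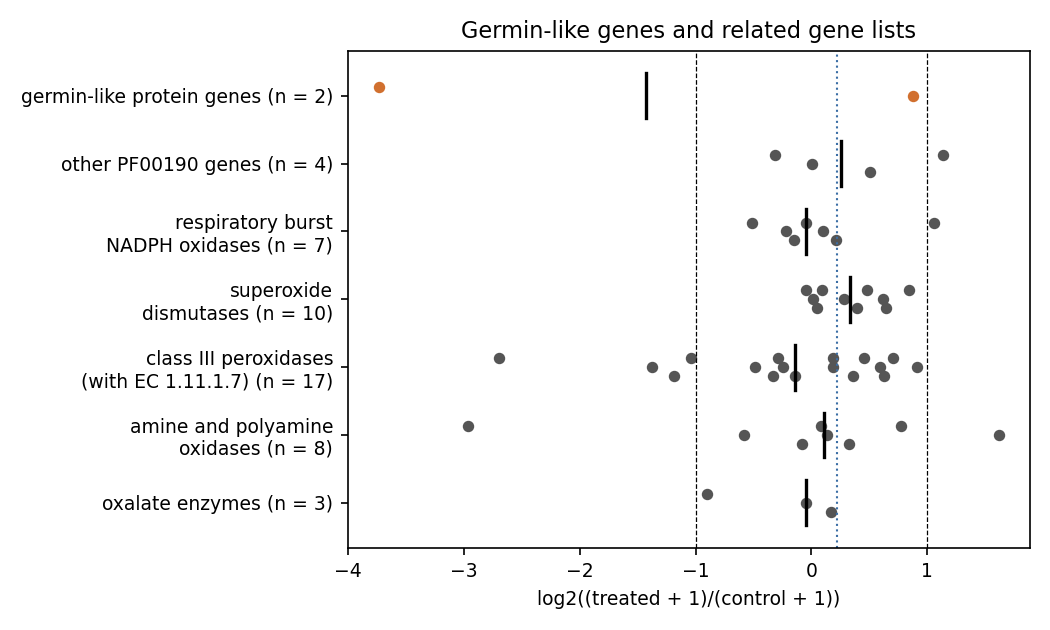
Log2((treated + 1)/(control + 1)) of single genes that reached 1 FPKM in either library, for the germin-like genes and related lists, with n beside each name; black bars are list medians, dashed lines mark -1 and 1 and the dotted line the median of all expressed genes at 0.22. The germin-like gene glp1 lies at -3.73, to the left of the genes of the other lists on this scale, of which pao1 at -2.96 is the lowest.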

How the data were processed

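The authors deposited a table of FPKM values for each library, with an interval and a quantification status per gene, per the file headers. The submitters' processing notes name Cufflinks 2.2.1, Cuffdiff, TopHat2 2.1.0, Picard 1.115, cutadapt 1.8.1 and Bowtie2 2.2.6, in no stated order or role. The authors also deposited 4 tables of their own comparison, with columns for log2 fold change, test score, p-value and q-value, per the file headers. The score is not reported. Another 8 columns of per-library values there match no label and were left out.

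From the deposited FPKM, log2((treated + 1)/(control + 1)) was computed with Python 3.11.15, numpy 2.4.6 and pandas 2.3.3 for genes reaching 1 FPKM in either library, after the calculation was tested on simulated data. A log2 ratio of at least 1 or at most -1 was called higher or lower. With 1 library per group no p-value was computed. The fragment number behind a value was the square of 2 times the value over the distance to its upper bound. Centring divided treated values by 1.20, the median plain ratio of 14279 genes with at least 1 FPKM in each library. Locus starts count from 0 in the tables (that makes the length a multiple of 3 in 1106 of 1390 short FG loci) and are printed from 1. RefSeq names (assembly Zm-B73-REFERENCE-NAM-5.0) matched 3 of the 5 members. The named genes were all members and, from each list, up to 2 with the largest absolute log2 ratio among those with at least 10 FPKM in a library. Other named genes, the neighbours and the PF00190 comparison were chosen after values were seen. The members and lists were chosen with earlier results of these data known. A planned description of protein features was not made, since no protein sequences were used here. Pseudocounts, minimum levels, centring and interval overlap were varied.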

Additional observations from a re-analysis of the deposited data

How the results depend on the processing

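The lower call of glp1 held under pseudocounts of 0.1 and 5 FPKM and under centring. It also held when intervals that do not overlap were required in addition to the log2 ratio. The settings of no minimum and of a minimum of 5 FPKM only select genes and could not change the ratio of glp1. The log2 ratio of glp1 was -3.06 with a pseudocount of 5. GRMZM2G151249 passed a log2 ratio of 1 with a pseudocount of 0.1, so that 1 member was higher. The median over all 5 members was 0 with no minimum. Leaving out the highest member of each library, the summed level was 3.35 FPKM for the control and 4.85 FPKM for the treated library, where that member is GRMZM2G151249. The shares of all genes higher and lower were 8.36% and 4.04% with a pseudocount of 0.1, 0.946% and 0.996% with a pseudocount of 5, 2.04% and 3.39% centred, 1.52% and 1.03% with no minimum, and 5.19% and 3.14% with a minimum of 5 FPKM.

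Among the related lists, a pseudocount of 0.1 gave 1 higher class III peroxidase, 2 higher amine and polyamine oxidases and 1 lower oxalate enzyme. A pseudocount of 5 gave 0 higher cupin genes, 0 higher NADPH oxidases and 0 lower class III peroxidases. Centring gave 0 higher cupin genes and 0 higher NADPH oxidases. A minimum of 5 FPKM gave 0 higher cupin genes, 0 lower class III peroxidases and a class III peroxidase median of 0.39. With lists changed after seeing the data, the wider peroxidase list had 4 lower genes and the PF00190 list 1 higher gene. Of the list counts 66 of 78 were within 1.5 times the reported count. These include counts of 0 that stayed at 0, among them all counts of laccases and superoxide dismutases, so the share says little about stability. List medians shifted by up to 0.52, and 3 of 33 changed sign. These were the class III peroxidases above, the amine and polyamine oxidases (-0.11 centred) and the NADPH oxidases (0.27 with a minimum of 5 FPKM). Another 4 medians were 0 with no minimum. The causes were not tested.

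No paired analysis was possible because each group has 1 library, which also means that no replicate was left out. FPKM tables keep no library totals, so depth was read from interval widths alone, and genes below about 1 fragment cannot be told from silent ones.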
